A study of Mus musculus with 10 samples.

Results

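Mitochondrial oxidative phosphorylation is carried out by 5 protein complexes of the inner mitochondrial membrane, and the genes described here encode their nuclear subunits. They were taken by symbol: protein-coding nuclear genes whose names begin with Nduf and a subunit letter and number (complex I), Sdha to Sdhd (complex II), names beginning with Uqcr (complex III), with Cox4 to Cox8 (complex IV) or with Atp5 (complex V). This rule held for 77 of the 14300 genes with deposited counts, 36 in complex I, 4 in complex II, 8 in complex III, 12 in complex IV and 17 in complex V. A further 8 annotated genes of these names (Cox4i2, Cox6a2, Cox7a1, Cox7b2, Cox8b, Cox8c, Ndufa4l2 and another identifier for Atp5o) were not analysed here. Some of the symbols go beyond the complex that their name gives: Ndufa4 encodes a protein now also placed in complex IV, Cox7a2l a factor that joins complexes III and IV, and Atp5s a protein of the ATP synthase that is not a structural subunit.

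The libraries came from mid-gestation Grem1 reporter mouse embryos (Grem1creERT; Rosa26LSLTdtomato, C57BL/6J background), whose dams received tamoxifen by gavage 24 hours before collection. The inducible Cre of this line is driven by Grem1 sequences, so that a dose of tamoxifen leaves a heritable red label (TdTomato) in Grem1-expressing cells. Live TdTomato+ and TdTomato- cells were sorted from the same tissue, and each of 5 mouse numbers (2 to 6) gave 1 library of each population (n = 5 and n = 5). Both populations carried the same alleles and received the same drug, and the TdTomato- population is every other live cell of the sort and not 1 cell type. The labels name the tissue as brain, and the methods of the study describe dorsal telencephalon with the meninges removed.

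Complexes I and II pass electrons from NADH and succinate to ubiquinone, complex III passes them on to cytochrome c and complex IV to oxygen, and the protons pumped on the way drive ATP synthesis by complex V. Complex II is also an enzyme of the tricarboxylic acid cycle, moves no protons itself and is the only one of the complexes without a subunit from the mitochondrial genome. Neural progenitors are generally held to rely more on glycolysis, and neurons more on oxidative phosphorylation.

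Library totals were 23429034 to 27286180 reads, and reads of the 77 genes made up 0.476 to 0.634% of each library. Levels are given as CPM, counts scaled to the size of each library and its TMM factor, as mean±s.d. or for mice 2 to 6 in that order, and adjusted p-values are from the quasi-likelihood F-test of edgeR over all 14300 genes with mouse as a block. Grem1 stood at 6.11±0.731 CPM without and 63.3±3.10 CPM with the reporter (log2 fold change 3.37, s.e. 0.07, adjusted p = 1.78e-09, edgeR). The populations differed in cell type markers. All 8 markers of postmitotic excitatory neurons rose in TdTomato+ cells (summed level 12115 to 13894 CPM against 4503 to 5357 CPM), and all 10 markers of progenitors (144 to 208 CPM against 2045 to 2481 CPM), all 8 of proliferation (63.3 to 99.6 against 1667 to 1975 CPM) and all 8 of GABAergic neurons (51.3 to 76.6 against 1572 to 1966 CPM) fell. All 6 erythroid markers in the table (1.18 to 27.9 against 76.8 to 260.1 CPM) and all 6 microglial markers (0.771 to 1.54 against 14.7 to 66.3 CPM, with 4 of 6 at 3 counts or fewer in every TdTomato+ library) fell as well. Of the vessel markers 3 of 4 fell (1.67 to 3.95 against 10.7 to 17.7 CPM), and of the meningeal markers 2 of 3 (2.12 to 3.00 against 7.02 to 11.03 CPM). The part of these cell types in the differences below was not tested, and in sorted bulk samples fewer cells of a type and less RNA per cell cannot be told apart.

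The subunit genes differed little between the populations, and those that differed were mostly lower in TdTomato+ cells. At an adjusted p of 0.05 or less 6 of 77 (7.79%) rose in TdTomato+ cells and 32 of 77 (41.6%) fell, where 37.9% of all genes tested rose and 39.4% fell. With this scaling (TMM) the share that fell was near that of all genes, and the share that rose was below it. The fold changes were small: 75 of 77 (97.4%) had an absolute log2 fold change under 0.5, against 49.7% of all genes. The study set thresholds on adjusted p (0.05) and on the size of the log2 fold change (2), and Cox6b2 alone passed both, as did 12.9% of all genes. CPM of the 2 populations did not overlap for 1 gene that was higher in TdTomato+ cells (29.1% of all genes) and for 23 that were lower (32.4% of all genes). The median log2 fold change was -0.07 (quartiles -0.25 and 0.03) over the 77 genes and -0.01 (quartiles -0.52 and 0.49) over all genes.

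**Figure D1:**
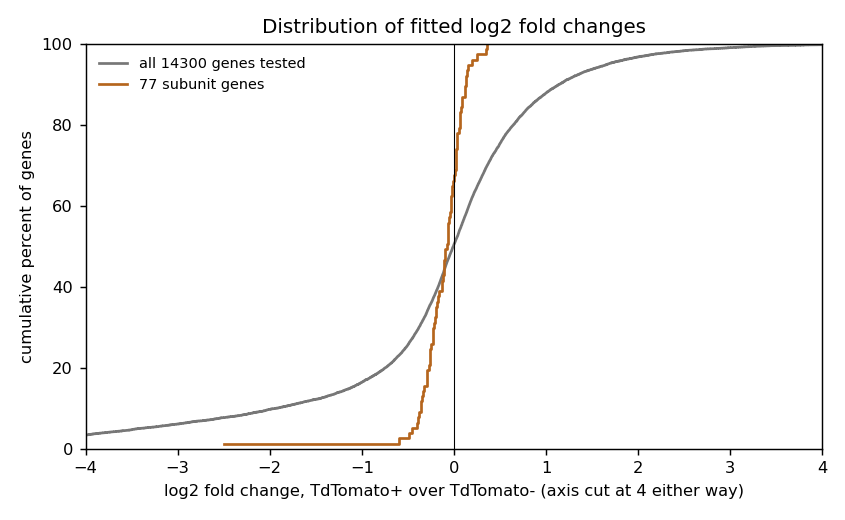
Cumulative percent of genes (y axis) up to each fitted log2 fold change of TdTomato+ over TdTomato- (x axis, cut at 4 either way) for all 14300 genes (grey) and the 77 subunit genes (brown). The brown curve rises between -0.60 and 0.36, apart from Cox6b2 at -2.50, where the grey curve is spread over several log2 units.

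The split between genes that rose and fell depended on the scaling. With library totals alone in place of TMM factors, the median of all genes moved to -0.18 and that of the subunit genes to -0.25, and 1 gene (Ndufb2) rose and 61 (79.2%) fell. Of all genes 28.7% rose and 49.8% fell with this scaling, so the share of subunit genes that fell was near that of all genes with TMM factors and above it with library totals. Relative to the median of all genes the subunit genes stood at -0.07 with either scaling. This had to be so, since a change of scaling shifts all genes by nearly the same amount. Leaving out mouse 2 left 2 genes that rose and 34 that fell (all genes 37% and 38.4%), and leaving out mouse 6 left 3 and 27 (all genes 36.5% and 37.1%). Counts are uncertain for genes that share exonic bases or sequence with others. Of the 50 subunit genes whose exons overlap no other annotated gene 2 rose and 22 (44%) fell, against 37.8% and 40.4% of the 8855 such genes in the table.

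**Figure D2:**
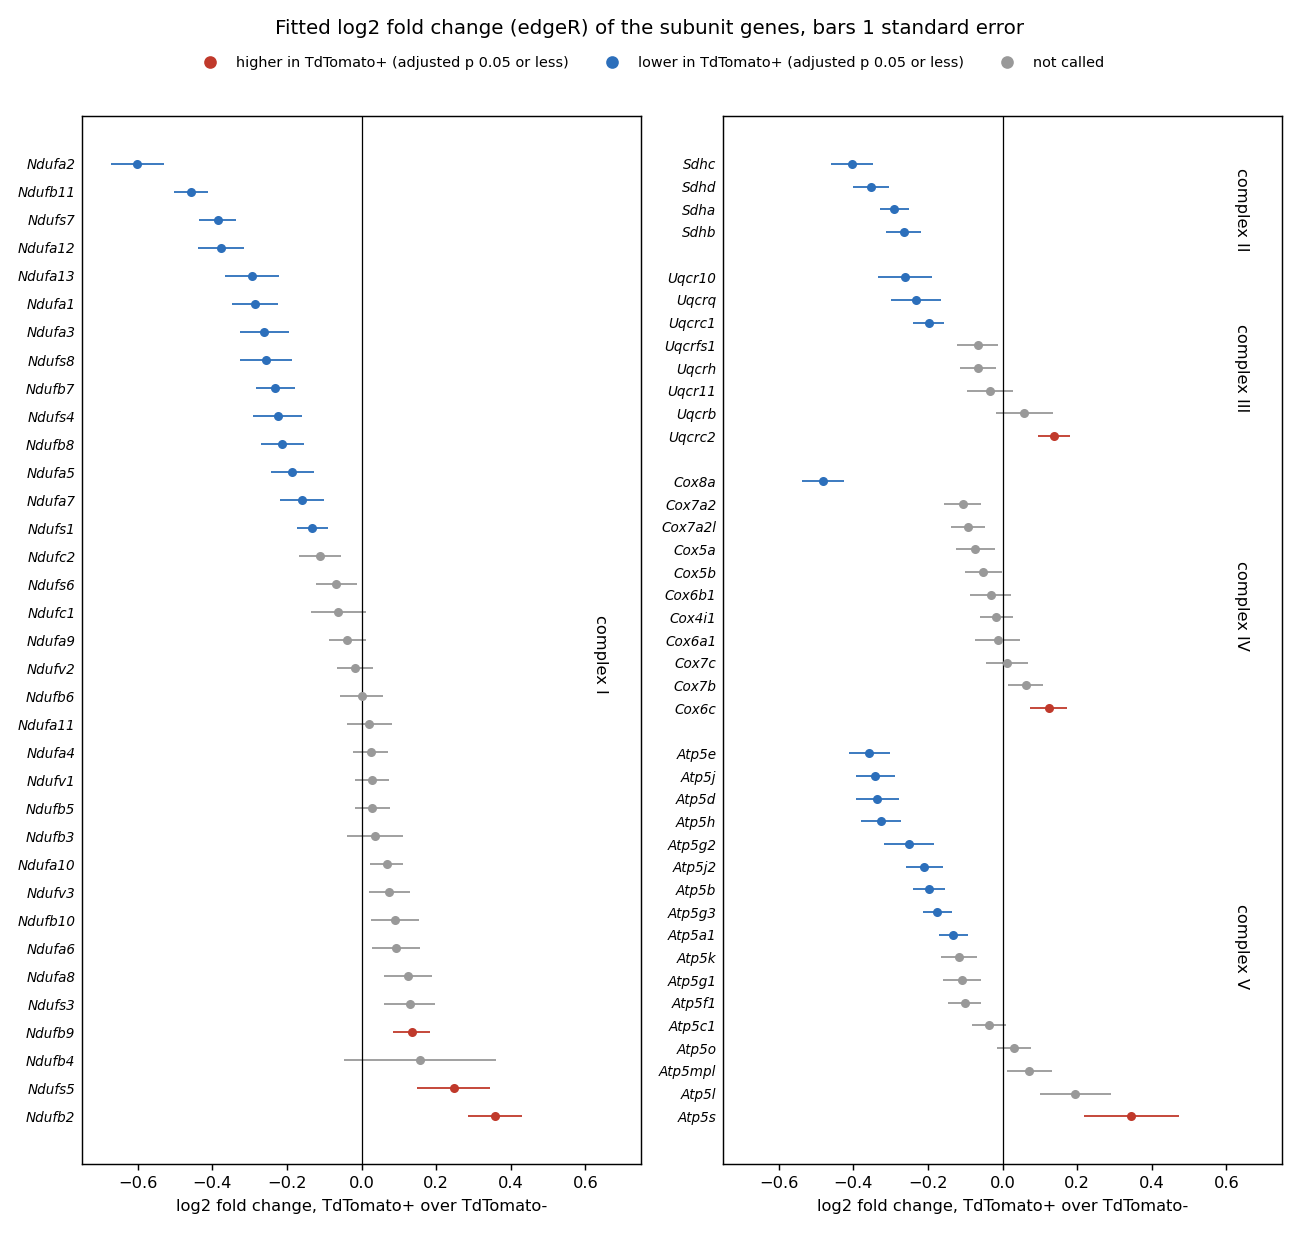
Fitted log2 fold change of TdTomato+ over TdTomato- (points) with 1 standard error (bars) for 75 subunit genes, by complex, coloured by the call at an adjusted p of 0.05 or less. Cox6b2, at -2.50, lies outside the axis and is not drawn, and 1 further gene is not shown. All 4 complex II genes lie between -0.40 and -0.26, and most complex IV genes lie within 0.11 of 0.

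In complex II, succinate dehydrogenase, every subunit gene fell, where 39.4% of all genes fell. Sdha and Sdhb encode the flavoprotein and the iron-sulfur subunit that oxidize succinate, and Sdhc and Sdhd the membrane anchor that binds ubiquinone. All 4 were lower in TdTomato+ cells in 5 of 5 mice, and their summed level was 365±17.4 CPM in TdTomato- and 294±7.64 CPM in TdTomato+ libraries. Their calls remained under each of the other scalings, filters and models run and with any 1 mouse left out, except that 2 of 4 passed TREAT, a test against a minimum log2 fold change of 0.26.

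Sdha (GRCm38 chr13:74322254-74350280, minus strand) was at 159.9, 162, 172, 164 and 167 CPM in the TdTomato- libraries of mice 2 to 6 and at 137, 138, 134, 131 and 135 CPM in their TdTomato+ libraries (log2 fold change -0.29, s.e. 0.04, adjusted p = 0.000106, edgeR). The highest TdTomato+ library was below the lowest TdTomato- library. Sdhb (chr4:140961203-140979193, plus strand) was at 73.6, 86.7, 93.7, 85.6 and 87.3 CPM in the TdTomato- libraries, against 67.6, 74.3, 75.9, 68.3 and 68.6 CPM in the TdTomato+ libraries (log2 fold change -0.26, s.e. 0.05, adjusted p = 0.000716, edgeR). Its groups overlapped, since the TdTomato- library of mouse 2 was lower than the TdTomato+ libraries of mice 3 and 4.

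Sdhc (chr1:171127165-171150603, minus strand) was at 64.8, 69.8, 73.2, 76.6 and 73.8 CPM in the TdTomato- libraries, against 55.9, 53.7, 55, 51.3 and 54.3 CPM in the TdTomato+ libraries (log2 fold change -0.40, s.e. 0.06, adjusted p = 0.000138, edgeR). Sdhd (chr9:50596357-50603812, minus strand) was at 38.4, 46.3, 45.1, 43 and 42.2 CPM in the TdTomato- libraries, against 33.1, 35.8, 34.7, 31.6 and 33.1 CPM in the TdTomato+ libraries (log2 fold change -0.35, s.e. 0.05, adjusted p = 0.000144, edgeR). Neither of the anchor subunits overlapped between the populations.

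**Figure D3:**
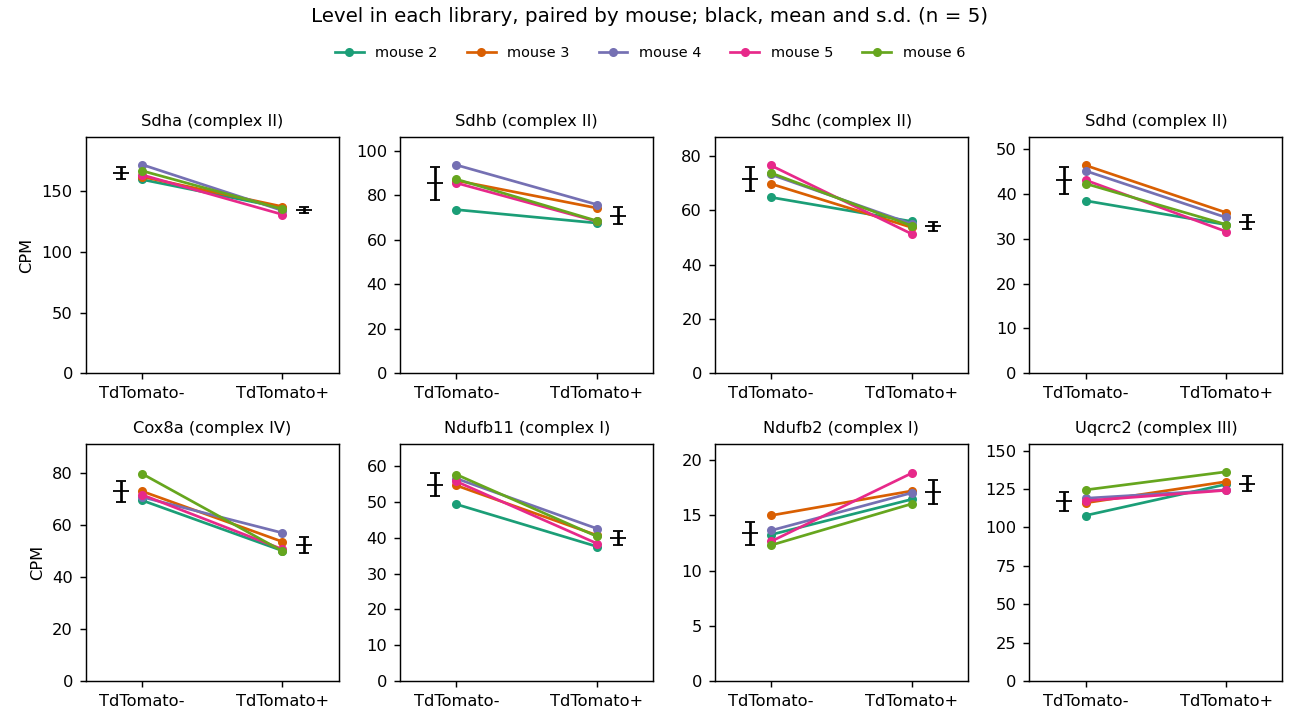
CPM (y axis, from 0) of 8 subunit genes in the TdTomato- and TdTomato+ library of each mouse (coloured lines), with mean and s.d. in black (n = 5). The lines of the 4 Sdh genes, Cox8a and Ndufb11 fall in all 5 mice, and those of Ndufb2 and Uqcrc2 rise in all 5.

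The 250 bases before the transcription start are shown for the Sdh genes that the RefSeq promoter table (GRCm38.p6) holds, since all 4 genes of this complex fell, and are written on the strand of the gene. Capitals mark 2 sets of letters that the nuclear respiratory factors are known to bind, GCGCATGC for NRF1 and CCGGAAG for GABPA, on either strand (GCATGCGC and CTTCCGG when read on the other).
Sdha, chr13:74350241-74350490, minus strand: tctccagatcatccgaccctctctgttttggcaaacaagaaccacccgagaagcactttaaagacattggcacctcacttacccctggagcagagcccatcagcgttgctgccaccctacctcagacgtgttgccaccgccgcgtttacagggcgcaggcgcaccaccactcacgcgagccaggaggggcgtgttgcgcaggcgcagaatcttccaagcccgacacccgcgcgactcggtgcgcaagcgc
Sdhb, chr4:140961021-140961270, plus strand: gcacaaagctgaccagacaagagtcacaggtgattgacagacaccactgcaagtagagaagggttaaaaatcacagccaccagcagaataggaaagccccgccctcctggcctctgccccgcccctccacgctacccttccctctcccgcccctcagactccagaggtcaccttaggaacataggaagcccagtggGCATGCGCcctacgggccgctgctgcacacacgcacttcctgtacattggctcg
Sdhd, chr9:50603850-50604099, minus strand: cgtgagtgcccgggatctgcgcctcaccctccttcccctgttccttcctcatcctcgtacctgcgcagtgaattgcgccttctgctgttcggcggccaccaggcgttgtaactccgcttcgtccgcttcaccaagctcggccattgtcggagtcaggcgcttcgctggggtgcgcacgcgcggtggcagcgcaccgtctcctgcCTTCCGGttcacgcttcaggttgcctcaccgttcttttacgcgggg
Sdha held neither, Sdhb held the NRF1 letters beginning 54 bases before the start and Sdhd the GABPA letters beginning 46 bases before it.

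The other 2 sequences hold the same palindrome, in which the NRF1 letters occur on both strands and overlap. They are shown because Atp5g2, for a c-ring subunit of ATP synthase, fell and Cox6a1, for a subunit of complex IV, did not pass the test.
Atp5g2, chr15:102671048-102671297, minus strand: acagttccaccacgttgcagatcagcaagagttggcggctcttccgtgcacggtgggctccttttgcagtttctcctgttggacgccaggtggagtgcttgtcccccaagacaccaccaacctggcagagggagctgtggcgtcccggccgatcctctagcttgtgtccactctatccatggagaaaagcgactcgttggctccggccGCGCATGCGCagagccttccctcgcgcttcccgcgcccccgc
Cox6a1, chr5:115348959-115349208, minus strand: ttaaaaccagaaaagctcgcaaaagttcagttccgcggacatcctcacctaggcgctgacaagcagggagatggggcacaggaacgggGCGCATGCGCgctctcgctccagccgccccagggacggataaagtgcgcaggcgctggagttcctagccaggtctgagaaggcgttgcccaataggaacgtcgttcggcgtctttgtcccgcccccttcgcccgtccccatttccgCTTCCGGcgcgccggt
Over the members, 63 of 77 genes were matched to 68 promoters. The NRF1 letters were in 8 of 68 (11.8%), against 2.26% of all 32851 promoters, and those of GABPA in 12 of 68 (17.6%), against 6.91%. AAGATGGC for YY1 was in 1 of 68 (1.47%, all promoters 1.56%) and TCAAGGTCA for ESRRA in 1 of 68 (1.47%, all promoters 0.387%). The NRF1 letters were in 2 of 31 promoters of genes that fell and in 6 of 35 of genes that were not called, and the GABPA letters in 5 of 31 and 7 of 35. These matches describe letters in a window and not bound sites.

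Complex I, the NADH dehydrogenase, was mixed. Of its 36 genes 3 rose, 14 fell and 19 did not pass the test, where 37.9% of all genes rose and 39.4% fell. With library totals 1 rose and 26 fell, against 28.7% and 49.8% of all genes. The median log2 fold change was -0.03, and the summed level was 1567±81.2 CPM in TdTomato- and 1499±49.1 CPM in TdTomato+ libraries. Among the core subunits, the conserved part that takes electrons from NADH to ubiquinone, 3 fell: Ndufs7 (log2 fold change -0.39, adjusted p = 7.80e-05), Ndufs8 (log2 fold change -0.26, adjusted p = 0.00753) and Ndufs1 (log2 fold change -0.13, adjusted p = 0.0162, edgeR). Ndufs3, Ndufv1 and Ndufv2 were not called, with log2 fold changes of 0.13, 0.03 and -0.02. Ndufs7, Ndufs8 and Ndufs1 did not overlap between the populations, and the call of Ndufs1 was lost without mouse 6 and with DESeq2.

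Of the 29 accessory subunits, which surround the core, 3 rose and 11 fell, against 37.9% and 39.4% of all genes. Ndufa2 was at 30.9, 29.9, 28.1, 30.8 and 29.7 CPM in the TdTomato- libraries and at 20.4, 21.6, 21.3, 19 and 16.5 CPM in the TdTomato+ libraries (log2 fold change -0.60, s.e. 0.07, adjusted p = 5.12e-05, edgeR), the largest decrease in the complex. Ndufb11 was at 49.4, 54.7, 56.6, 55.8 and 57.7 CPM in the TdTomato- libraries and at 37.6, 40.7, 42.6, 38.4 and 40.4 CPM in the TdTomato+ libraries (log2 fold change -0.46, s.e. 0.05, adjusted p = 1.58e-05, edgeR). Ndufa2 encodes a subunit of the matrix arm and Ndufb11 one of the membrane arm, and for both genes each TdTomato+ library was below every TdTomato- library. Ndufa12, Ndufa1, Ndufa3, Ndufs4, Ndufb7 and Ndufa5 also fell without overlap (log2 fold changes -0.38 to -0.19), and Ndufa13, Ndufb8 and Ndufa7 fell with overlapping groups (-0.29 to -0.16). The call of Ndufa5 was lost without mouse 3, 4 or 6 and that of Ndufa7 without mouse 2, 5 or 6, and both with DESeq2. With the length and GC offset, which removes the trend of counts with transcript length and GC content from each library, the calls of Ndufa7 and Ndufb8 were lost. Some genes that fell share sequence or exonic bases with others: 25.6% of the 75-base stretches of Ndufa13 and 11.8% of those of Ndufa12 are in transcripts of other annotated genes, and the exons of Ndufb11 and Ndufa2 overlap another gene over 12.9% and 11.5% of their length.

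In the other direction Ndufb2 was at 13.3, 15, 13.6, 12.6 and 12.3 CPM in the TdTomato- libraries and at 16.5, 17.2, 17, 18.8 and 16 CPM in the TdTomato+ libraries (log2 fold change 0.36, s.e. 0.07, adjusted p = 0.00164, edgeR). Ndufb2, another membrane-arm subunit (chr6:39592574-39603382, plus strand), was the only subunit gene whose TdTomato+ libraries all lay above its TdTomato- libraries. Ndufs5 was at 7.43, 8.95, 7.78, 8.99 and 8.89 CPM in the TdTomato- libraries and at 10.6, 8.98, 10.2, 9.83 and 10.3 CPM in the TdTomato+ libraries (log2 fold change 0.25, s.e. 0.10, adjusted p = 0.043, edgeR), and Ndufb9 at 57.6±4.97 without and 63.1±2.78 CPM with the reporter (log2 fold change 0.13, s.e. 0.05, adjusted p = 0.0324, edgeR). Both were higher in 5 of 5 mice with overlapping groups, and 24.1% and 20.3% of their 75-base stretches are also in transcripts of other annotated genes. The call of Ndufs5 was lost without mouse 2, 4, 5 or 6 and that of Ndufb9 without mouse 2, 3, 4 or 5. Both calls were also lost with upper-quartile factors, with DESeq2 and with library totals, where Ndufb9 stood at -0.042, and that of Ndufb9 with no replicate block as well. Ndufb4 was at 0.561 to 1.13 CPM over all libraries, and 35.2% of its 75-base stretches are shared, so its count is uncertain.

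In complex III, the cytochrome bc1 complex, 1 of 8 genes rose, 3 fell and 4 did not pass the test, where 37.9% of all genes rose and 39.4% fell. The median log2 fold change was -0.07. With library totals 0 rose and 6 fell, against 28.7% and 49.8% of all genes. The summed level was 504±28.4 CPM in TdTomato- and 482±11.8 CPM in TdTomato+ libraries. The genes of the 2 large core proteins went opposite ways with TMM scaling. Uqcrc1 was at 111, 123, 130.1, 129 and 129 CPM in the TdTomato- libraries and at 104, 110.0, 112, 106 and 109 CPM in the TdTomato+ libraries (log2 fold change -0.20, s.e. 0.04, adjusted p = 0.00203, edgeR). Uqcrc2 was at 108, 116, 119, 117 and 124 CPM in the TdTomato- libraries and at 128, 129.9, 124, 124 and 136 CPM in the TdTomato+ libraries (log2 fold change 0.14, s.e. 0.04, adjusted p = 0.014, edgeR). Each did so in 5 of 5 mice, and the groups of each overlapped. With library totals Uqcrc2 stood at -0.04 and was no longer called, and 19.7% of its exonic bases overlap another gene. Uqcrfs1, for the Rieske iron-sulfur protein, was not called (log2 fold change -0.07).

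The small subunits of complex III included 2 genes that fell. Uqcr10 was at 26.1, 31.3, 27.1, 31.5 and 33.2 CPM in the TdTomato- libraries and at 26.7, 24.9, 23.6, 23 and 26 CPM in the TdTomato+ libraries (log2 fold change -0.26, s.e. 0.07, adjusted p = 0.00923, edgeR). It was lower in 4 of 5 mice, with mouse 2 the exception. Uqcrq was at 37.5, 44.6, 44.6, 44.3 and 46.1 CPM in the TdTomato- libraries and at 36, 38.5, 42.3, 32.3 and 35.9 CPM in the TdTomato+ libraries (log2 fold change -0.23, s.e. 0.07, adjusted p = 0.0113, edgeR), a call that was lost without mouse 6. The groups of both genes overlapped.

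In complex IV, cytochrome c oxidase, 9 of 12 nuclear genes did not pass the test, which 77.3% of all genes passed in either direction. With library totals, though, 11 fell, against 49.8% of all genes. The summed level of the 12 was 803±31.1 CPM in TdTomato- and 769±26.1 CPM in TdTomato+ libraries, and the median log2 fold change was -0.04. Cox4i1, the gene for the largest nuclear subunit, was at 146±9.63 without and 144±2.49 CPM with the reporter (log2 fold change -0.02, s.e. 0.04). Cox8a was at 69.4, 72.8, 70.6, 71.5 and 79.6 CPM in the TdTomato- libraries and at 49.96, 53.4, 56.8, 50.5 and 49.8 CPM in the TdTomato+ libraries (log2 fold change -0.48, s.e. 0.06, adjusted p = 4.24e-05, edgeR). Cox8a and Cox6c encode small subunits, and the groups of Cox8a did not overlap. Cox6c was at 48, 47.9, 54.1, 45.6 and 46.9 CPM in the TdTomato- libraries and at 52.4, 58.3, 55.6, 47.5 and 50.6 CPM in the TdTomato+ libraries (log2 fold change 0.12, s.e. 0.05, adjusted p = 0.0482, edgeR). It was higher in 5 of 5 mice with overlapping groups, and its call was lost without mouse 2, 3, 5 or 6, with DESeq2, with upper-quartile factors, with no replicate block and with library totals, where it stood at -0.05.

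Cox6b2, for a form of subunit VIb best known from testis, had the largest fold change and one of the lowest levels. It had 31, 40, 32, 16 and 23 counts in the TdTomato- libraries and 5, 3, 8, 2 and 3 counts in the TdTomato+ libraries, that is 1.06±0.326 and 0.187±0.106 CPM (log2 fold change -2.50, s.e. 0.29, adjusted p = 4.15e-05, edgeR). A count of 3 or fewer was treated as the floor of detection, and 3 of 5 TdTomato+ libraries were at it. With a prior count of 2 the log2 fold change of Cox6b2 was -2.10. Its paralog Cox6b1, the form found in most tissues, was at 88.1, 88.7, 94.2, 91.8 and 97.4 CPM in the TdTomato- libraries and at 92.9, 92.3, 97.5, 80.5 and 87.2 CPM in the TdTomato+ libraries and was not called (log2 fold change -0.03).

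Paralogs in 4 pairs were compared within libraries, which does not depend on scaling, with an exact two-sided sign-flip permutation test over 5 mice that cannot go below p = 0.062. The log2 ratio of Cox6b1 to Cox6b2 counts was 6.47±0.51 in TdTomato- and 8.89±0.61 in TdTomato+ libraries, a difference of 2.42±0.52 that was positive in 5 of 5 mice (exact p = 0.062, the smallest possible, adjusted p = 0.25 over 4 pairs). Cox6b2 reached the minimum of 10 counts for a pair only in TdTomato- libraries (16 to 40 counts, against 2 to 8 in TdTomato+ libraries). That choice favours a positive difference for this pair, so the test cannot decide its direction. At counts this low the TdTomato+ ratio also depends on the pseudocount of 0.5. Cox7a2 was at 57.1, 56.3, 54.8, 56.7 and 57.4 CPM in the TdTomato- libraries and at 54.7, 52.2, 55, 47.7 and 52.7 CPM in the TdTomato+ libraries, and Cox7a2l at 59.5, 56.9, 56.4, 63.9 and 67 and at 61.4, 51.3, 50.9, 59.8 and 61.8 CPM. Neither was called, and the ratio of Cox7a2 to Cox7a2l differed by -0.01±0.12 (exact p = 0.812, adjusted p = 0.812). The c subunit of ATP synthase is made from 3 genes, and the ratio of Atp5g3 to Atp5g1 differed by -0.07±0.07 (exact p = 0.188, adjusted p = 0.375) and that of Atp5g3 to Atp5g2 by 0.08±0.13 (exact p = 0.312, adjusted p = 0.417). None of the 4 pairs passed the threshold, which this design could not reach.

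Complex V, the ATP synthase, held the 2 genes with the highest levels per kilobase of transcript. Of its 17 genes 9 fell, 1 rose and 7 did not pass the test, where 39.4% of all genes fell and 37.9% rose. The median log2 fold change was -0.13. With library totals 14 fell, against 49.8% of all genes. The summed level was 2491±153 CPM in TdTomato- and 2229±104 CPM in TdTomato+ libraries. Per kilobase of principal transcript, Atp5b, for the catalytic beta subunit, stood at 427±31.9 CPM without the reporter, 373±28 CPM with it, and Atp5a1, for the alpha subunit, at 254±17.6 and 232±9.17 CPM. The medians over all 77 genes on this scale were 56.5 and 49.5 CPM. Both genes fell in 5 of 5 mice with overlapping groups (log2 fold changes -0.20 and -0.13), and the call of Atp5a1 was lost without mouse 6 and with the length and GC offset.

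Of the 5 genes of the F1 head 4 fell (39.4% of all genes fell), and Atp5c1, for the gamma subunit of its shaft, was not called (log2 fold change -0.04). Atp5e was at 43.7, 40.7, 43.9, 46.8 and 45.8 CPM in the TdTomato- libraries and at 36.2, 33.4, 35.9, 32.1 and 34.8 CPM in the TdTomato+ libraries (log2 fold change -0.36, s.e. 0.05, adjusted p = 0.000261, edgeR). Atp5e encodes the epsilon subunit. Atp5d, for the delta subunit, had a log2 fold change of -0.34, and for both of these small F1 subunits the groups did not overlap. In the c ring, Atp5g3 was at 116, 118, 127, 123 and 123 CPM in the TdTomato- libraries and at 109, 102, 111, 107 and 108 CPM in the TdTomato+ libraries (log2 fold change -0.17). Atp5g2 was at 16.5, 15.6, 15.2, 16.2 and 15.9 CPM in the TdTomato- libraries and at 13.1, 14.53, 12.9, 13.52 and 12.7 CPM in the TdTomato+ libraries (log2 fold change -0.25). These 2 genes for the c subunit fell without overlap. Atp5g1, the other, was at 39.9, 44.5, 49.9, 45.6 and 48 CPM in the TdTomato- libraries and at 40.9, 42.5, 42.2, 42.1 and 43.3 CPM in the TdTomato+ libraries and was not called (log2 fold change -0.11).

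Of the 8 genes of the stalk and membrane part, 3 fell, where 39.4% of all genes fell. Atp5j was at 68.4, 73.1, 79, 77.1 and 73.1 CPM in the TdTomato- libraries and at 59.98, 60.2, 59.96, 54.8 and 57.6 CPM in the TdTomato+ libraries (log2 fold change -0.34, s.e. 0.05, adjusted p = 0.000278, edgeR). Atp5j encodes coupling factor 6 of the stalk, and its groups did not overlap. Atp5h and Atp5j2 fell as well (-0.33 and -0.21), with the call of Atp5j2 lost with the length and GC offset, and Atp5o, which encodes the subunit that joins stalk and head, was not called (0.03). Of the 75-base stretches of Atp5h 18.9% and of those of Atp5j 14.9% are also in transcripts of other annotated genes. The exons of Atp5o overlap another annotated gene over 47.9% of their length.

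The 1 gene under this name that rose was Atp5s, the non-structural factor. Atp5s was at 3.40, 4.11, 3.29, 3.61 and 3.55 CPM in the TdTomato- libraries and at 4.13, 4.08, 4.77, 4.91 and 4.97 CPM in the TdTomato+ libraries (log2 fold change 0.35, s.e. 0.13, adjusted p = 0.0323, edgeR). It was higher in 4 of 5 mice, and its call was lost without mouse 2, 4, 5 or 6, with DESeq2, with library totals and with the length and GC offset.

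The summed level of the 77 genes was 5234, 5657, 5984, 5836 and 5934 CPM in the TdTomato- libraries of mice 2 to 6 and 5182, 5374, 5529.6, 5049.8 and 5221 CPM in the TdTomato+ libraries. The log2 ratios were -0.01, -0.07, -0.11, -0.21 and -0.18, and 38, 46, 51, 68 and 60 of the 77 genes were lower in the TdTomato+ library. Mouse 2 thus had nearly equal numbers in each direction, and its TdTomato- library was the lowest of the 5 in summed level. Complex II was lower in every mouse (-0.20, -0.28, -0.36, -0.39 and -0.35), as was complex V (-0.06, -0.11, -0.16, -0.24 and -0.23). Complexes I, III and IV were above 0 in mouse 2 (0.04, 0.07 and 0.04) and below it in mice 3 to 6. These ratios use TMM factors, which were furthest apart in mouse 2 (1.07 for its TdTomato- and 0.929 for its TdTomato+ library). In each mouse the factors raise TdTomato+ levels relative to TdTomato- levels, so signs near 0 depend on the scaling. Ratios per mouse with library totals were not computed.

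**Figure D4:**
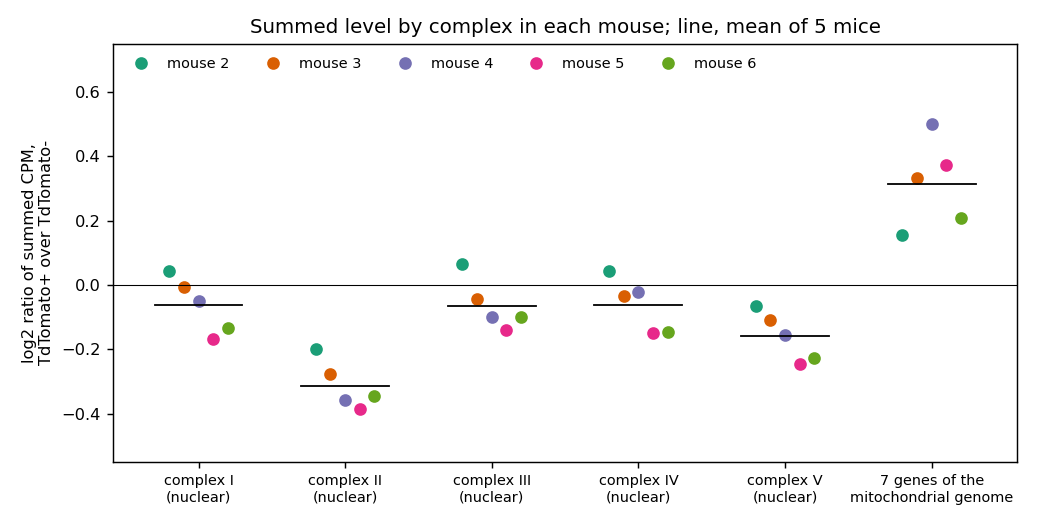
Log2 ratio of summed CPM, TdTomato+ over TdTomato- (y axis), for the nuclear genes of each complex and for 7 genes of the mitochondrial genome, in each mouse (points) with the mean of 5 mice (lines). With TMM factors complexes II and V lie below 0 in all 5 mice, and the mitochondrial genes above 0 in all 5. Signs of values near 0 depend on this scaling.

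Of the 13 subunit genes of the mitochondrial genome 7 were in the table. Those not in the table were mt-Nd3, mt-Nd4l, mt-Co2, mt-Co3, mt-Atp6 and mt-Atp8. Why these are absent is not given in the sources used here. By the edgeR test 3 of the 7 rose and 0 fell, and DESeq2 gave the same counts. Of all genes 37.9% rose and 39.4% fell by edgeR, and 35.2% and 36.3% by DESeq2. At an unadjusted p under 0.05, 4 rose and 0 fell. Those that rose were mt-Cytb of complex III (log2 fold change 0.55, adjusted p = 9.98e-05), mt-Nd4 of complex I (log2 fold change 0.54, adjusted p = 0.000107) and mt-Co1 of complex IV (log2 fold change 0.29, adjusted p = 0.000858). With TMM factors the summed level of the 7 genes was 13248 to 14965 CPM in TdTomato- and 15969 to 19716 CPM in TdTomato+ libraries, without overlap. The direction of the median of the 7 depended on the model: it was 0.22 in the fit reported here and -0.18 when the trend of counts with transcript length and GC content was removed from each library, with which 2 rose and 3 fell. With library totals the median was 0.04 and 2 rose, mt-Co1 no longer being called. Of all genes 28.7% rose with library totals, and 38.7% rose and 39.9% fell with the length and GC trend removed.

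Other mitochondrial genes were counted as lists, which were drawn up by function with earlier results of these data known. Beside them, 37.9% of all genes rose and 39.4% fell with TMM factors, and 28.7% rose and 49.8% fell with library totals. Of 8 related nuclear genes outside the symbol rule 1 rose and 5 fell (median -0.31), with Etfa, for an electron transfer flavoprotein subunit, at -1.09 and Atpif1, for the ATP synthase inhibitor, at 0.32. Of 47 assembly factors, the chaperones of the complexes, 17 rose and 7 fell (median 0.05), but 7 rose and 18 fell with library totals (median -0.13), from Ttc19, for a complex III factor, at 0.79 to Ndufaf8 at -0.61. Of 14 genes of the tricarboxylic acid cycle, which feeds complexes I and II, 2 rose and 6 fell (median -0.04), and 0 and 11 with library totals.

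Of 11 regulators of mitochondrial gene expression 0 rose and 7 fell (median -0.46), with the same counts by DESeq2 and at an unadjusted p under 0.05 in edgeR. For this and the lists below, 37.9% of all genes rose and 39.4% fell with TMM factors, and 28.7% rose and 49.8% fell with library totals. Tfb1m, for an enzyme that methylates mitochondrial ribosomal RNA, had the largest decrease (log2 fold change -1.22, s.e. 0.13, adjusted p = 1.97e-05, edgeR). The genes for the factors whose letters were searched for above also fell, Nrf1 (log2 fold change -0.71), Gabpa (log2 fold change -0.37) and Yy1 (log2 fold change -0.48), except Esrra, which was not called (log2 fold change 0.03, and -0.15 and lower with library totals). Of 14 carriers, pores and import genes 5 rose and 9 fell (median -0.29), and 2 and 9 with library totals. Of 77 genes for mitochondrial ribosomal proteins, which translate the subunits of the mitochondrial genome, 2 rose and 48 fell (median -0.22; 0 and 64 with library totals), from Mrps36 at 0.40 to Mrpl39 at -1.16. The differences between these lists and the subunit genes were not tested.

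**Figure D5:**
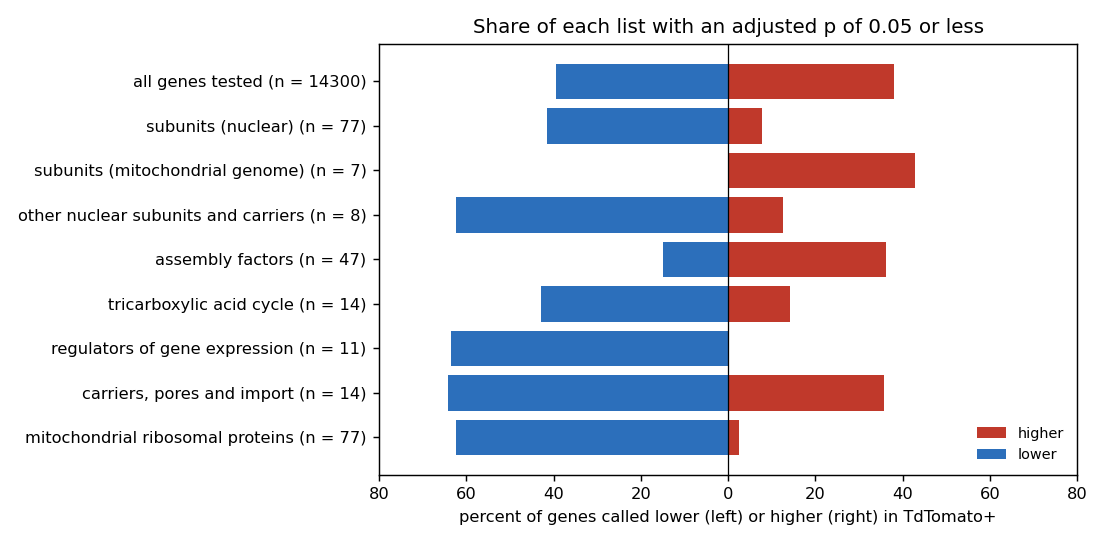
Percent of the genes of each list with an adjusted p of 0.05 or less, lower in TdTomato+ (blue, to the left) and higher (red, to the right), with the number of genes in the table. The 77 nuclear subunits show 41.6% lower and 7.79% higher beside 39.4% and 37.9% of all 14300 genes.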

How the data were processed

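The data are raw read counts for each gene, as the authors deposited them, for 10 libraries of embryos collected at 14.5 dpc after tamoxifen (6 mg) at 13.5 dpc. They trimmed bases under a Phred score of 28 and adaptors, aligned with STAR 2.4.2a to GRCm38 allowing 1 mismatch, kept unique alignments and counted reads per gene with STAR. The annotation release and the strand column counted are not given in the sources used here, so counts of overlapping genes are uncertain. Labels and methods differ in the library kit, sequencer and read length; both describe poly(A) selection and stranded libraries. Genes of low count are not in the table, and filterByExpr removed none. Whether a mouse number stands for 1 embryo or pooled embryos is not given in the sources used here, so p-values measure the spread between these samples.

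Counts were fitted with edgeR 4.0.16 in R 4.3.3 (TMM, glmQLFit, glmQLFTest, mouse as a block as in the study, prior count 0.125), with Benjamini-Hochberg adjustment over 14300 genes. Same-mouse deviations from the group means correlated at 0.186 to 0.316 and those of different mice at -0.312 to 0.212, and the numbers were treated as pairs. Symbols, positions, overlaps and transcript lengths are from GENCODE (GRCm38), which matched 14271 genes. Members, lists and tests were chosen with earlier results of these data known. Per-library values are given for the Sdh genes, the 2 largest increases and decreases per complex, absolute log2 fold changes of 1 or more, and the paralog pairs; libraries that stood apart are given beside the range of the others, and other members by value or range. 1 member enters every count and sum but is not reported here by itself. From each other list the genes with the largest increase and decrease could be named; genes named beyond that were chosen after their values were seen. A floor of 3 counts is 0.104 to 0.136 CPM and covers counting error only. Paralog ratios used a pseudocount of 0.5, for pairs with 10 or more counts in every library of a population. Alternatives were RLE, upper-quartile and no normalization factors, DESeq2 1.42.0, no filter or one of 5 CPM, no block, each mouse left out, a prior count of 2, a length and GC offset, robust estimation, TREAT and leaving out genes whose exons overlap others.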

Additional observations from a re-analysis of the deposited data

Results flagged for a closer look

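In 9 of 154 groups of 5 libraries (77 genes in 2 populations) 1 library stood apart from the other 4, with a gap to the next library that exceeded 0.71 of the range of the 5. Chance marks about 1 group in 20, which would be 7.7 of these. The TdTomato- library of mouse 2 was lowest for Ndufa13 (0.748 of the range; 43.9 CPM against 53.1 to 56.7 CPM), Uqcrq (0.803; 37.5 against 44.3 to 46.1 CPM) and Cox5a (0.774; 85.1 against 99.04 to 104 CPM). The TdTomato- library of mouse 4 was highest for Ndufa5 (0.759; 22.1 against 19.3 to 19.9 CPM) and Atp5k (0.784; 38.7 against 35.1 to 35.9 CPM).

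Among TdTomato+ libraries, that of mouse 4 was highest for Ndufb9 (0.793; 68.0 against 61.3 to 62.6 CPM) and Uqcr11 (0.752; 30.1 against 25.7 to 26.7 CPM). Mouse 5 was lowest for Ndufb10 (0.720; 56.2 against 62.0 to 64.4 CPM) and mouse 3 for Cox4i1 (0.729; 139.8 against 144 to 146 CPM).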

How the results depend on the processing

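The 4 complex II genes fell in every refit but TREAT, which called 2 of them, and no gene called in the reported fit was called the other way in any of them. The numbers that rose and fell (6 and 32, where 37.9% and 39.4% of all genes did) were 3 and 36 with upper-quartile factors (all genes 37% and 40.5%), 1 and 61 with library totals (28.7% and 49.8%), 2 and 29 with DESeq2 (35.2% and 36.3%), 11 and 33 with the length and GC offset (38.7% and 39.9%), 0 and 10 with TREAT against 0.26 (28.2% and 29.7%; 1 rose at its unadjusted p under 0.05), and 4 and 32 with no replicate block (36.5% and 38.1%). They were 2 and 22 over the 50 genes without exon overlap (37.8% and 40.4% of all such genes). With 1 mouse left out 2 to 4 rose and 27 to 34 fell (all genes 35.7 to 37% and 37.1 to 38.4%). The median was -0.25 with library totals, and 0 genes passed both thresholds of the study with the filter of 5 CPM, which drops Cox6b2. RLE factors and robust estimation kept all 38 calls. The refit with no filter repeats the reported fit, since filterByExpr removed no gene. A prior count of 2 changes the fold changes and not the p-values, so neither of these refits could lose a call. Without mouse 2, 3, 4, 5 and 6 in turn, 33, 35, 34, 33 and 30 of the 38 calls remained.

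The log2 fold change of some genes near 0 changed sign, and the cause was not tested beyond the shift of all genes with library totals. With library totals these were Atp5mpl (-0.11), Atp5o (-0.15), Cox6c (-0.054), Cox7b (-0.12), Cox7c (-0.17), Ndufa10 (-0.11), Ndufa11 (-0.16), Ndufa4 (-0.15), Ndufa6 (-0.085), Ndufa8 (-0.054), Ndufb10 (-0.087), Ndufb3 (-0.14), Ndufb4 (-0.020), Ndufb5 (-0.15), Ndufb6 (-0.18), Ndufb9 (-0.042), Ndufs3 (-0.049), Ndufv1 (-0.15), Ndufv3 (-0.10), Uqcrb (-0.12) and Uqcrc2 (-0.040), and the median of the assembly factors (-0.13). With the length and GC offset they were Atp5c1 (0.047), Cox5b (0.0037), Cox7c (-0.22), Ndufa11 (-0.0023), Ndufa4 (-0.073), Ndufa9 (0.029), Ndufb6 (-0.030) and Uqcrb (-0.078), and the median of the mitochondrially encoded genes (-0.18). With upper-quartile factors they were Cox7c (-0.0072) and Ndufb6 (-0.018), and with the filter of 5 CPM Ndufb6 (-0.00074). With 1 mouse left out the ranges that crossed 0 were Cox4i1 (-0.055 to 0.0057), Cox6a1 (-0.060 to 0.035), Cox6b1 (-0.060 to 0.0073), Cox7c (-0.017 to 0.062), Ndufa11 (-0.029 to 0.075), Ndufa4 (-0.010 to 0.044), Ndufb3 (-0.038 to 0.094), Ndufb6 (-0.034 to 0.021), Ndufv1 (-0.0017 to 0.050), Ndufv2 (-0.047 to 0.013) and Uqcr11 (-0.074 to 0.0056), the median of complex I (-0.053 to 0.0031) and the difference in the ratio of Cox7a2 to Cox7a2l (-0.056 to 0.021). Counts per kilobase left the differences of the paralog ratios as they were, which is fixed, since the length of a gene is the same in every library. Low counts limit Cox6b2 and Ndufb4, whose mean levels were at or below about 1 CPM. Of the 75-base stretches of Ndufb4 35.2% are shared with other genes, and the part of this in its low count was not tested.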

Other observations

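Outside the 5 complexes, 2 pairs of related mitochondrial genes were unequally changed, and were chosen after their values were seen. Slc25a4 and Slc25a5 encode ADP/ATP carriers that exchange the product of complex V across the inner membrane. Slc25a4 rose from 269.8±27.7 to 344±20.9 CPM (log2 fold change 0.35, s.e. 0.05, adjusted p = 0.000106, edgeR), and Slc25a5 fell from 163±16.3 to 51.8±6.30 CPM (log2 fold change -1.66, s.e. 0.05, adjusted p = 4.74e-09, edgeR). Sucla2 and Suclg2 encode the ATP-forming and GTP-forming beta subunits of succinyl-CoA ligase, the enzyme that makes the succinate used by complex II. Sucla2 rose from 43.2±2.72 to 50.4±3.16 CPM (log2 fold change 0.22, s.e. 0.05, adjusted p = 0.00457, edgeR), and Suclg2 fell from 10.1±1.64 to 1.48±0.543 CPM (log2 fold change -2.79, s.e. 0.16, adjusted p = 3.01e-07, edgeR). With library totals Slc25a4 was still called (log2 fold change 0.18) and Sucla2 was not (0.05). The difference within each pair was not tested.

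Idh2, for the NADP-linked mitochondrial isocitrate dehydrogenase, fell (log2 fold change -1.10, s.e. 0.07, adjusted p = 4.84e-07, edgeR), and Idh3a, for a subunit of the NAD-linked enzyme of the cycle, rose (log2 fold change 0.26, s.e. 0.05, adjusted p = 0.000943, edgeR), a call that was lost with library totals (0.08). Of the other subunits of the NAD-linked enzyme, Idh3g fell (log2 fold change -0.28, s.e. 0.05, adjusted p = 0.000922, edgeR) and Idh3b was not called (log2 fold change 0.09). Among import genes, Tomm20, for a receptor of the outer membrane, rose (log2 fold change 0.52, s.e. 0.04, adjusted p = 5.97e-06, edgeR), and Tomm40, for the channel of the outer membrane, fell (log2 fold change -0.48, s.e. 0.05, adjusted p = 3.12e-05, edgeR). Timm50, Hspa9 and Hspd1, for an inner membrane receptor and 2 chaperones of the matrix, fell (log2 fold changes -0.63, -0.61 and -0.52). The part of the progenitor, proliferation and other marker genes that fell with them was not tested.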
